A study of Mus musculus with 12 samples.

Results

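Uninjured lungs of mice given NVP-BHG712 were compared with uninjured lungs of mice given its vehicle by single-nucleus RNA-seq. The comparison takes 6 of the 12 libraries of the series, chosen by their titles: 3 libraries of mice given PBS and NVP-BHG712 (PBS_NVP) and 3 of mice given PBS and vehicle (PBS_vehicle). After nuclei with 200 to 6000 genes and at most 5% of UMIs from mitochondrial genes were kept, they held 20185 of the 47319 nuclei of the series. The other 6 libraries come from bleomycin-injured lungs and were not compared here. All 6 mice were C57BL/6J and 7 weeks old when PBS was instilled into the trachea. NVP-BHG712 or its vehicle, a solvent mix of polyethylene glycol 300 with N-methyl-2-pyrrolidone, was given by oral gavage once a day for 5 days from day 5, and lungs were collected on day 14. The PBS_NVP group therefore reads lungs several days after dosing had ended, without injury. Beside the compound, the labels separate the groups by sequencing run, which is 1, 2 and 2 for the vehicle libraries and 1, 2 and 3 for those of NVP-BHG712. Each library is 1 mouse, and the sex of the mice was not given in the sources used here.

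EphB4 is a receptor tyrosine kinase whose main ligand, ephrin-B2, sits in the membrane of neighbouring cells, so that the pair signals at cell contacts, in both directions. In the vasculature EphB4 marks veins and ephrin-B2 marks arteries, and both are also found outside the endothelium. NVP-BHG712 binds the kinase domain of EphB4 and, like other inhibitors of its kind, also binds related kinases. It acts on the protein, whereas the data here read transcripts in nuclei. The study used the compound to ask whether blocking EphB4 alters lung fibrosis, and the PBS-treated lungs are the setting without injury.

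UMIs were summed over all nuclei of a library, so that 1 value per mouse entered each test. The libraries held 1465 to 8610 nuclei and 4954515 to 34709663 UMIs, with 1731 to 5398 UMIs in the median nucleus. The deepest libraries were replicate 1 of both groups, with 23838528 UMIs under vehicle and 34709663 under NVP-BHG712. Mitochondrial genes took 0.0480, 0.0728 and 0.0568% of UMIs in vehicle replicates 1, 2 and 3 and 0.0629, 0.0799 and 0.0632% in NVP-BHG712 replicates 1, 2 and 3. The share was higher under NVP-BHG712 in all 3 pairs of the same number, and the groups overlapped (exact permutation test over 3 against 3 mice, two-sided, p = 0.4). No 2 libraries shared more than 7 barcodes. Between 3 and 3 mice this exact test cannot give a p below 0.1. In sums over a whole lung, fewer cells of a type and less RNA per cell cannot be told apart.

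The libraries grouped by replicate number and not by treatment. For 8549 genes averaging at least 10 CPM (the UMIs of a gene scaled to a fixed library total), the replicate number took 84.58% of the sum of squares of log2 CPM, treatment took 4.997% and the remainder took 10.43%. The biological coefficient of variation, edgeR's measure of the spread between libraries beyond counting error, was 0.0521, 0.0648 and 0.0950 between the NVP-BHG712 and vehicle libraries of number 1, 2 and 3. Between libraries of the same treatment but another number it was 0.175 to 0.272, above all 3 of those values. Numbers 1 and 2 each join libraries of the same sequencing run, while number 3 joins libraries of runs 2 and 3. What else mice of the same number shared was not given in the sources used here, so each result below is given both without pairing and paired by number.

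**Figure D1:**
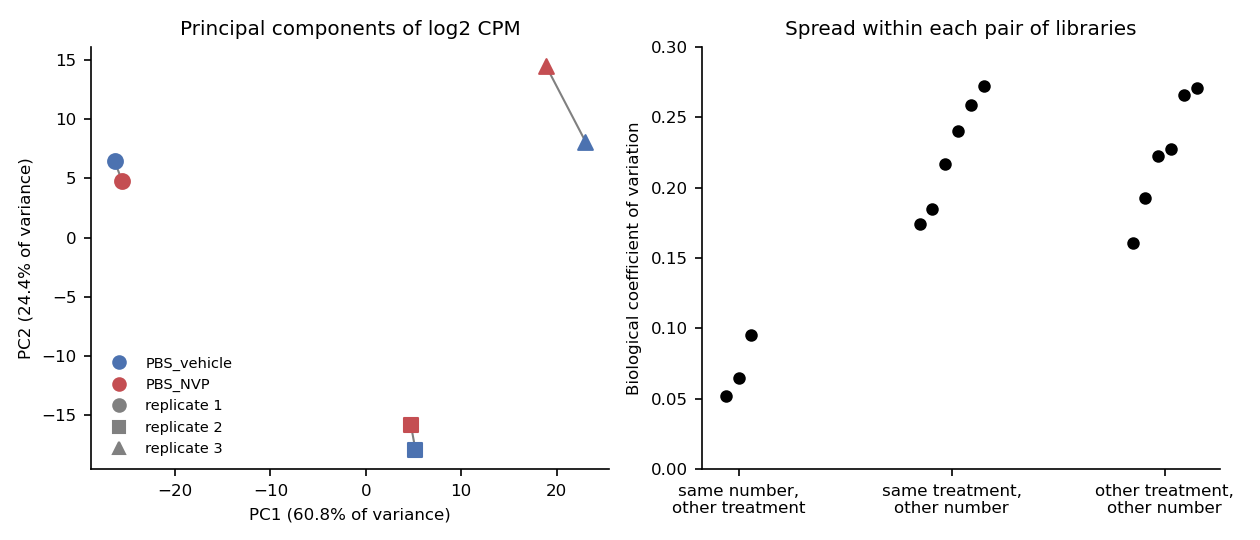
Left, the 6 whole-lung libraries on the first and second principal components of log2 CPM (percent of variance on each axis), with colour for treatment, symbol for replicate number and a line joining the same number. Right, the biological coefficient of variation (no unit) of each pair of libraries, 1 point per pair. Libraries of the same number lie side by side whatever the treatment, and their 3 coefficients, 0.0521 to 0.0950, lie below all others.

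No gene passed the threshold in the whole lung. Of 13928 genes tested with edgeR's quasi-likelihood test, 0 (0.0%) reached an adjusted p under 0.05 without pairing and 0 (0.0%) with pairing. At an unadjusted p under 0.05 there were 26 genes (0.187%) without pairing and 391 (2.81%) with pairing. DESeq2 also called 0 genes in both designs, with 20 and 82 at an unadjusted p under 0.05. The groups did not overlap for 409 genes (2.94%), and 3578 genes (25.7%) differed in the same direction in all 3 pairs, 1808 higher and 1770 lower under NVP-BHG712. The median log2 difference over all genes was -0.0018 without pairing and -0.0015 with pairing.

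Large differences could be bounded for most genes. The median standard error of the log2 difference was 0.23 without pairing and 0.13 with pairing. The 95% interval lay within 1 log2 unit on either side of 0 for 77.9% of all genes tested without pairing and 92.9% with pairing. Among the 8549 genes averaging at least 10 CPM these shares were 94.9% and 99.6%. Smaller differences, and differences in genes of low count, were not detectable with 3 mice per group, the spread between them and this depth.

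Ephb4 itself (chromosome 5, 137350109 to 137378669, plus strand, GRCm38) was at 46.9, 29.0 and 26.4 CPM in vehicle replicates 1, 2 and 3 and at 42.7, 27.9 and 21.1 CPM in NVP-BHG712 replicates 1, 2 and 3. It was slightly lower under NVP-BHG712 in every pair, by less than the spread among the vehicle mice. The log2 difference was -0.16 (SE 0.31, unadjusted p = 0.629) without pairing and -0.15 (SE 0.09, 95% interval -0.36 to 0.048, unadjusted p = 0.12) with pairing. Its ligand Efnb2 (chromosome 8, 8617434 to 8661242, minus strand) was at 133, 116 and 96.1 CPM under vehicle and 126, 113 and 76.2 CPM under NVP-BHG712, in the same order. Again each NVP-BHG712 library lay below the vehicle library of its number and within the range of the others, except replicate 3, the lowest of the 6. The paired log2 difference was -0.13 (95% interval -0.28 to 0.016, unadjusted p = 0.074).

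The other B-class members showed no common direction. Of 8 EphB receptors and ephrin-B ligands, 6 had enough counts to be tested, 0 were called and their median paired log2 difference was -0.067. Ephb3 was at 15.8, 12.7 and 16.2 CPM under vehicle and 14.6, 13.8 and 17.5 CPM under NVP-BHG712. Efnb1, another ephrin-B ligand, was at 30.6, 19.2 and 18.5 CPM and 37.8, 17.2 and 19.9 CPM. Both overlapped fully between the groups. Ephb6 and Efnb3, with 70 and 77 UMIs over the 6 libraries, were not tested. Of 14 EphA receptors and ephrin-A ligands, 9 were tested, 0 were called and the median was 0.073. Efna5, a ligand anchored to the outer membrane, had the lowest p of both classes. It was at 142, 218 and 254 CPM under vehicle and 164, 235 and 298 CPM under NVP-BHG712, higher in each pair, with a paired log2 difference of 0.19 (SE 0.05, unadjusted p = 0.0042) and overlap between the groups. None of the 15 other kinases that inhibitors of this class bind, among them Pdgfrb and Ddr2, had an unadjusted p under 0.05, and their median was 0.034. Ddr2, a collagen receptor kinase, was at 111, 139 and 171 CPM under vehicle and 110, 139 and 122 CPM under NVP-BHG712.

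Across cell classes, named from marker genes after clustering, Ephb4 was highest in venous and Efnb2 in arterial endothelium when libraries were pooled. Ephb4 was 1 of the 8 venous markers and Efnb2 1 of the 9 arterial markers used for naming. These top places are therefore partly set by the naming and are not an independent result. Pooled over the 6 libraries and scaled to the total of the class, Ephb4 was at 322 CPM in venous endothelial, 213 in general capillary, 192 in lymphatic endothelial, 119 in arterial endothelial and 47.6 in aerocyte nuclei, the aerocyte being the capillary cell of gas exchange. It was at 16.4 CPM in fibroblasts and, with 23 UMIs in all, at 3.39 CPM in alveolar macrophages. Efnb2 was at 1605 CPM in arterial endothelial, 830 in general capillary, 279 in aerocyte and 7.61 in fibroblast nuclei. With libraries weighted equally, lymphatic nuclei had mean levels of 209 and 468 CPM under vehicle and NVP-BHG712, venous nuclei 256 and 273 CPM and general capillary nuclei 176 and 171 CPM, so the lymphatic place in this order depends on the weighting. The highest lymphatic value, 1018.5 CPM in PBS_NVP replicate 3, rests on 6 UMIs. These levels are per class total and not scaled between libraries, unlike the tests.

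Within the classes that hold most Ephb4, the treatments did not separate. In venous endothelial nuclei Ephb4 was at 379, 226 and 162 CPM under vehicle and 353, 245 and 219 CPM under NVP-BHG712, with a paired log2 difference of 0.03 (SE 0.21). In general capillary nuclei it was at 257, 129 and 142 CPM and 227, 144 and 141 CPM, a difference of -0.09 (SE 0.13). In both classes number 1 was the highest under either treatment. Among the classes in which Ephb4 could be tested, aerocytes gave the largest paired difference: 65.6, 37.9 and 35.9 CPM under vehicle and 47.1, 22.1 and 15.0 CPM under NVP-BHG712. It was lower in each pair, with a paired log2 difference of -0.59 (unadjusted p = 0.049), rests on 185 UMIs and did not pass over all genes. Efnb2 in aerocytes was at 342, 294 and 180 CPM and 263, 241 and 145 CPM (paired log2 difference -0.35, unadjusted p = 0.017), also not called. Fibroblast Ephb4 was at 19.5, 12.1 and 14.1 CPM and 17.8, 13.8 and 13.4 CPM.

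Since fewer than 10 genes were called in either design, the whole-lung genes of lowest unadjusted p among those averaging at least 10 CPM are given as uncalled values. Without pairing, Il33 (chromosome 19, 29925114 to 29960718, plus strand) stood among them with the largest difference. It encodes interleukin-33, an alarmin kept in the nuclei of alveolar type II and other barrier cells. It was at 60.0, 52.4 and 65.9 CPM in vehicle replicates 1, 2 and 3 and at 45.2, 17.5 and 33.0 CPM in NVP-BHG712 replicates 1, 2 and 3. The groups did not overlap. The log2 difference was -0.88 (SE 0.31, unadjusted p = 0.0225) without pairing and -0.88 (SE 0.22, 95% interval -1.45 to -0.31, unadjusted p = 0.0107) with pairing. Without pair 1, the paired fit called it lower (log2 difference -1.28, edgeR adjusted p = 0.000113), with 1 residual degree of freedom. Leaving out pair 2 or pair 3 gave no call of Il33. In alveolar type II nuclei, where its level was highest of the 2 classes in which it could be tested, Il33 was at 651, 765 and 866 CPM under vehicle and 534, 258 and 428 CPM under NVP-BHG712. There too the groups did not overlap (log2 difference -0.87, unadjusted p = 0.0017, edgeR adjusted p = 1.0).

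The remaining genes of lowest p without pairing differed by less. Dvl1, a mediator of Wnt signals, was at 23.0, 22.6 and 21.9 CPM under vehicle and 27.7, 29.0 and 31.3 CPM under NVP-BHG712 (log2 difference 0.38, unadjusted p = 0.0206). Cttn, the actin-binding cortactin, was at 33.4, 29.6 and 29.5 CPM and 38.2, 38.0 and 39.6 CPM (0.32, unadjusted p = 0.0329). In both genes all 3 NVP-BHG712 libraries lay above all 3 vehicle libraries. Mepce, BC037034 and Mib2 had log2 differences of 0.60, 0.60 and 0.41, and Sorbs2 and Senp8 of -0.38 and -0.46. Ttn, the giant protein of the muscle sarcomere, was at 35.2, 20.8 and 14.5 CPM and 13.8, 14.7 and 13.6 CPM (-0.77, unadjusted p = 0.0379). Its vehicle libraries spread widely while the NVP-BHG712 libraries sat together. Erbb4, a receptor kinase of the neuregulins, was at 14.3, 25.5 and 33.6 CPM and 15.3, 13.05 and 15.0 CPM (-0.73, unadjusted p = 0.0427), with number 1 going against the direction of the others. Without pair 1 the paired fit called Erbb4 too (log2 difference -1.06, edgeR adjusted p = 0.00667), again with 1 residual degree of freedom. Without pair 2 or pair 3 it was not called.

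With pairing, the genes of lowest p were small differences repeated in each pair. Fstl4 had a paired log2 difference of -0.65 (SE 0.13, unadjusted p = 0.00065). Ryr2, the calcium release channel of heart muscle, was at 44.8, 55.6 and 35.1 CPM under vehicle and 31.2, 41.2 and 31.1 CPM under NVP-BHG712 (-0.41, SE 0.09, unadjusted p = 0.0011). The 9 cardiomyocyte markers, Ryr2 among them, summed to 60.1, 60.4 and 39.2 CPM under vehicle and 37.5, 46.7 and 41.6 CPM under NVP-BHG712 (exact permutation p = 0.3). Ryr2 itself made up most of each sum, so the sums are not separate from its values and say little of other heart muscle genes. The part of heart muscle RNA in the Ryr2 and Ttn values was not tested. Dusp1, an immediate-early phosphatase that acts on MAP kinases, was at 79.3, 52.4 and 129 CPM and 84.2, 72.7 and 183 CPM (0.32, SE 0.08, unadjusted p = 0.0035). Tmem163, a zinc transporter, was at 238, 217 and 239 CPM and 214, 190 and 174 CPM (-0.26, unadjusted p = 0.0024) without overlap. Nrbp2, Ptprt and Xkr4 had paired log2 differences of 0.28, 0.41 and -0.27. The lowest adjusted p of any gene was 1.0 in both designs when rounded.

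**Figure D2:**
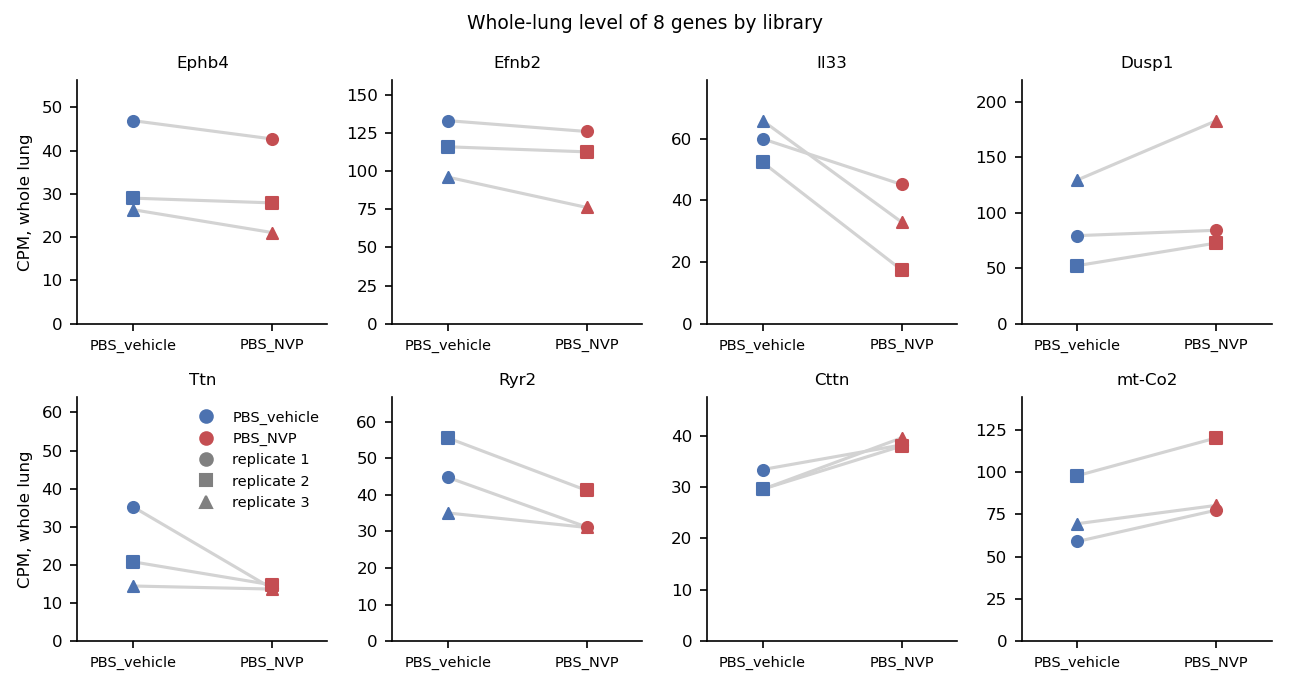
Whole-lung level (CPM, linear axis from 0) of 8 genes in each library, vehicle on the left and NVP-BHG712 on the right, with a symbol for each replicate number and a grey line joining the same number. Il33 has the largest log2 difference of the 8, with 52.4 CPM in the lowest vehicle library and 45.2 CPM in the highest NVP-BHG712 library, and it did not pass over all genes; in Ephb4 and Efnb2 the replicate number sets the order.

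Transcripts of the mitochondrial genome were the group with the highest median among the 25 gene lists examined. Of 13 mitochondrially encoded genes 12 were tested, 0 were called, 4 had an unadjusted paired p under 0.05 and 5 were higher under NVP-BHG712 in all 3 pairs, with none lower in all 3. The median paired log2 difference was 0.20, against -0.0015 over all genes, and the medians of the single pairs were 0.39, 0.067 and 0.067, so that pair 1 carried most of it. mt-Co2, a subunit of cytochrome oxidase, was at 59.0, 97.9 and 69.5 CPM under vehicle and 77.5, 120 and 80.3 CPM under NVP-BHG712 (paired log2 difference 0.31, SE 0.06, unadjusted p = 0.0007). mt-Co1 and mt-Co3, other subunits of the same enzyme, had paired log2 differences of 0.26 and 0.28. These transcripts lie outside the nucleus, and the mitochondrial share of UMIs given above counts the same transcripts. The share of UMIs from ribosomal protein genes was 0.211, 0.154 and 0.147% under vehicle and 0.215, 0.160 and 0.148% under NVP-BHG712, also higher in all 3 pairs (exact permutation p = 0.7). The part of carried-over cytoplasm was not tested.

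Genes that respond within minutes to hours to stimulation or stress had medians on the side of NVP-BHG712, without a call. In the immediate-early, heat shock, glucocorticoid and p53 lists below, 27.3, 43.8, 40.0 and 47.4% of genes lay one way in all 3 pairs. Over all genes tested it was 25.7%. Of 22 immediate-early genes tested, 0 were called, 2 had an unadjusted paired p under 0.05, and 6 were higher and none lower in all 3 pairs. Their median paired log2 difference was 0.13, and the medians of the single pairs were 0.084, 0.0083 and 0.15. Dusp1, given above, was one of the 2, and with the run as a block its log2 difference was -0.13. The other was Nr4a1, an orphan nuclear receptor, at 12.0, 10.5 and 37.8 CPM under vehicle and 15.8, 12.5 and 42.0 CPM under NVP-BHG712. Both were highest in replicate 3 of either treatment. Of 16 heat shock and unfolded protein genes 6 were higher and 1 lower in all 3 pairs, with a median of 0.089. Xbp1, the transcription factor of the unfolded protein response, was at 53.4, 29.2 and 24.0 CPM and 60.2, 36.5 and 30.1 CPM (paired log2 difference 0.25, unadjusted p = 0.013). Of 15 glucocorticoid response genes 4 were higher and 2 lower in all 3 pairs, with a median of 0.078. Sgk1, a kinase under glucocorticoid control, had a paired log2 difference of 0.21 (unadjusted p = 0.018). Of 19 p53 targets 7 were higher and 2 lower in all 3 pairs, with a median of 0.075, and Bax, the pro-apoptotic member among them, was at 13.6, 13.7 and 15.1 CPM and 13.8, 14.1 and 28.9 CPM. Only replicate 3 set the difference in Bax apart.

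Clock genes, whose levels follow the time of day, overlapped between the groups with 1 exception. Of 20 core clock and clock output genes 7 were higher and 2 lower in all 3 pairs, with a median of 0.049. Dbp, a clock output factor of large daily amplitude, was at 5.95, 9.62 and 14.9 CPM under vehicle and 6.12, 14.1 and 15.5 CPM under NVP-BHG712, and Nr1d1, a clock repressor, was at 41.4, 35.7 and 38.7 CPM and 40.3, 43.4 and 47.3 CPM. Neither had an unadjusted p under 0.05. Ciart, a clock repressor, was the exception, at 6.93, 7.78 and 4.89 CPM and 8.55, 8.74 and 11.4 CPM (paired log2 difference 0.47, unadjusted p = 0.043).

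The matrix genes, which the study followed in injured lungs, did not separate by treatment in uninjured ones. Of 11 extracellular matrix genes that the study named, 10 were tested, 0 were called, none was higher or lower in all 3 pairs, and the median paired log2 difference was 0.049. The study chose them from cultured lung fibroblasts of bleomycin-challenged mice with and without Ephb4 deletion, not from the libraries compared here. Eln, which encodes elastin, was at 287, 200 and 112 CPM under vehicle and 264, 256 and 119 CPM under NVP-BHG712 (paired log2 difference 0.10, 95% interval -0.093 to 0.29). Its level was highest in number 1 and lowest in number 3 under both treatments. Of 20 fibrillar collagen and elastic fibre genes 4 were higher and 1 lower in all 3 pairs, with a median of 0.011. Col3a1, a fibrillar collagen, was at 150, 217 and 130 CPM and 137, 201 and 105 CPM (paired log2 difference -0.17, unadjusted p = 0.012), while Mfap4, of the elastic fibres, was at 30.7, 58.9 and 135 CPM and 31.4, 69.9 and 197 CPM (0.27, unadjusted p = 0.014). With the run as a block Mfap4 was at -0.24, and without PBS_NVP replicate 3 the unpaired difference was -0.57.

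Genes of activated fibroblasts and of TGF-beta signalling lay close to 0. Of 16 activated fibroblast genes 1 was higher and 2 were lower in all 3 pairs, with a median of -0.0048. Tnc, which encodes tenascin C, was at 20.4, 44.0 and 61.8 CPM under vehicle and 24.7, 89.8 and 60.1 CPM under NVP-BHG712, with the largest difference in number 2. Of 18 TGF-beta ligands, receptors and feedback genes 2 were higher and 1 lower in all 3 pairs, with a median of -0.013. Ltbp3, which holds latent TGF-beta in the matrix, had a paired log2 difference of 0.22 (unadjusted p = 0.013). Of the 11 genes that the study linked to protein trafficking or to cargo of the endoplasmic reticulum, 2 were higher and none lower in all 3 pairs, with a median of 0.020. Copg1, a coat protein of retrograde transport, was at 25.2, 24.3 and 26.4 CPM and 21.7, 24.7 and 23.8 CPM.

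In the fibroblast class the same genes gave the same picture. Of the 9 matrix and 11 transport genes that could be tested there, 0 were called in either design, with medians of 0.0033 and 0.040. Eln was at 803, 507 and 216 CPM under vehicle and 732, 623 and 259 CPM under NVP-BHG712 (paired log2 difference 0.10, 95% interval -0.049 to 0.25). Loxl2, which crosslinks collagen and elastin, was at 5.16, 2.51 and 1.29 CPM and 5.86, 7.03 and 11.2 CPM without overlap (0.99, unadjusted p = 0.018, edgeR adjusted p = 0.854).

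Genes of vessels, metabolism and drug response had medians slightly on the side of vehicle. Of 26 angiogenic and venous-arterial genes tested 1 was higher and 6 were lower in all 3 pairs, with a median of -0.040. Vegfd, a lymphatic growth factor, was at 86.0, 243 and 162 CPM under vehicle and 83.4, 201 and 137 CPM under NVP-BHG712 (paired log2 difference -0.18, unadjusted p = 0.014). Of 14 MAP kinase feedback genes 1 was higher and 2 were lower in all 3 pairs, with a median of -0.037. Spry2 and Spry4, inhibitors of receptor tyrosine kinase signals, had paired log2 differences of 0.18 and -0.19, neither with an unadjusted p under 0.05. Of 22 lipid and fasting genes none was higher and 8 were lower in all 3 pairs, with a median of -0.080. Cd36, a fatty acid transporter of capillaries, was at 581, 482 and 364 CPM and 557, 422 and 328 CPM (-0.13, unadjusted p = 0.022), and Fabp4, a fatty acid carrier of capillary cells and fat, was at 7.25, 0.708 and 1.49 CPM and 3.06, 0.652 and 0.518 CPM (-1.14, unadjusted p = 0.0036). The 7 adipocyte markers, the 1 of 30 marker lists (3.33%) without overlap between groups in the whole lung, summed to 70.7, 68.3 and 72.3 CPM and 64.8, 66.5 and 55.9 CPM (exact permutation p = 0.1, the smallest possible, adjusted p = 1.0).

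Of 26 genes of the response to foreign compounds 17 were tested, 0 were called, none was higher and 4 were lower in all 3 pairs, with a median of -0.039. Abcb1a, an efflux pump for drugs, was at 19.9, 22.8 and 19.98 CPM under vehicle and 18.0, 15.8 and 15.9 CPM under NVP-BHG712 without overlap (paired log2 difference -0.30, unadjusted p = 0.028). Gsta3, a glutathione transferase of club cells, was at 67.3, 117 and 63.3 CPM and 58.7, 107 and 57.2 CPM (-0.16, unadjusted p = 0.027). Neither was called.

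Surfactant genes of the alveolar type II cell had a median slightly below 0. Of 12 genes tested 0 were called, 1 was higher and 4 were lower in all 3 pairs, with a median of -0.054. Sftpd, a collectin of surfactant, was at 85.2, 84.9 and 69.7 CPM under vehicle and 76.5, 69.5 and 65.8 CPM under NVP-BHG712 (paired log2 difference -0.18, unadjusted p = 0.025). Sftpc, the most type II specific of them, was at 296, 301 and 339 CPM and 288, 296 and 336 CPM, the libraries of the same number lying side by side. Lyz1, a lysozyme, went the other way (0.50, unadjusted p = 0.034). The share of type II nuclei, given below, was also lower in all 3 pairs, and its part in these values was not tested.

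Immune and proliferation lists gave no call. Of 21 interferon-stimulated genes 4 were higher and 4 lower in all 3 pairs, with a median of -0.014. Of 8 MHC class II genes 1 was higher, with a median of 0.030, and of 7 chemokines tested, of 25 listed, none lay one way in all pairs. Of 25 proliferation genes 13 were tested, none above 10 CPM, and 2 were lower in all 3 pairs, with a median of -0.22 and a median paired SE of 0.34. Blood content followed the replicate number: Hba-a1, an alpha globin, was at 46.0, 0.566 and 0 CPM under vehicle and 41.3, 1.96 and 0 CPM under NVP-BHG712, and the median over 3 haemoglobin genes was -0.036. The sex-linked genes differed little among the 6 libraries, with Ddx3y, of the Y chromosome, at 103 to 111 CPM in all of them and a median of 0.019 over 5 genes. Xist, also in this list, had 24 UMIs over the 6 libraries and was not tested.

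**Figure D3:**
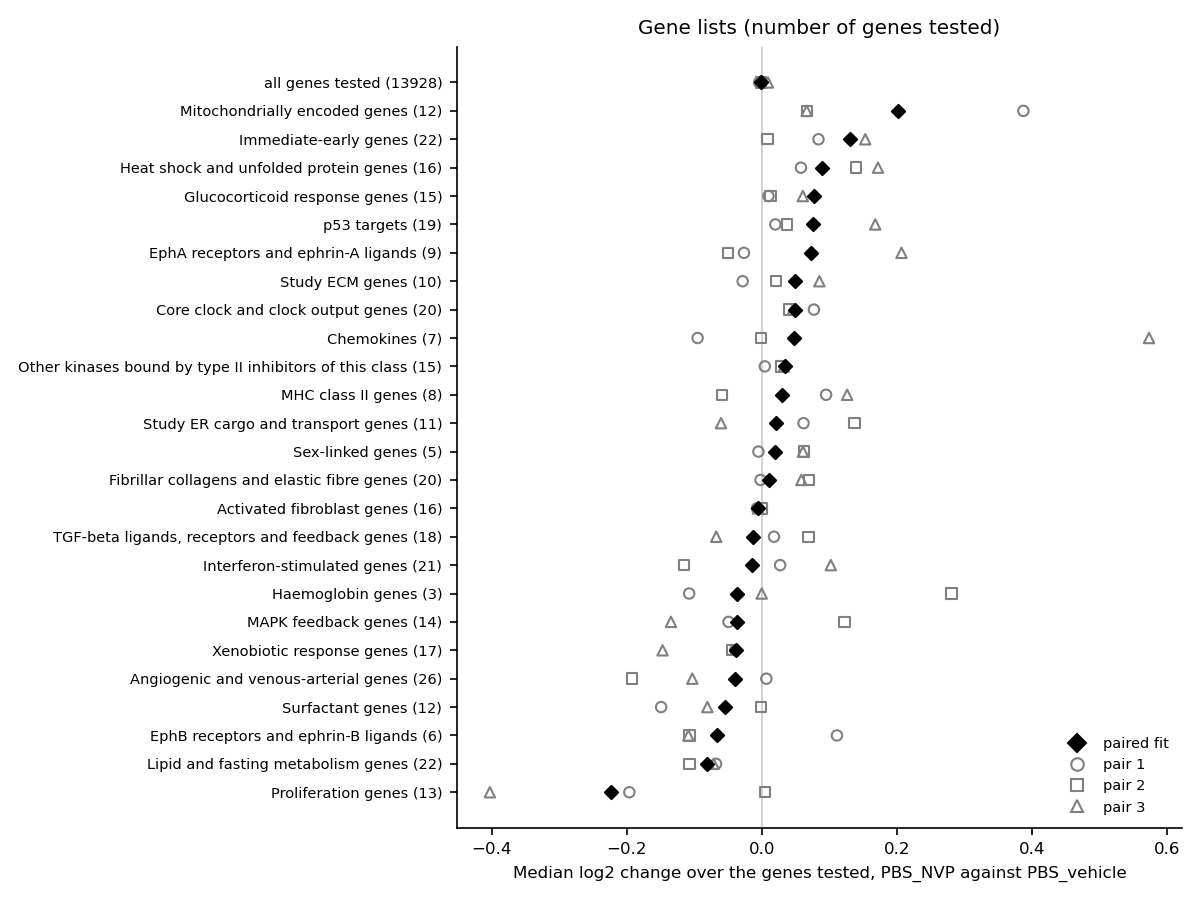
Median log2 difference between NVP-BHG712 and vehicle (horizontal axis, no unit) over the tested genes of each of 25 lists and over all genes tested, with the paired fit as a diamond and the 3 single pairs as open symbols. Mitochondrially encoded genes have the highest paired median, 0.20, set mostly by pair 1 at 0.39, and proliferation genes, all below 10 CPM, the lowest at -0.22.

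The make-up of the lung also varied more by replicate number than by treatment in most cell classes. Clustering of 19352 nuclei, after 833 likely doublets had been left out, gave 31 clusters, of which those with enough marker genes were joined into 17 named classes. Of these classes 0 (0.0%) had shares without overlap between the groups, and none had an adjusted p under 0.05 (exact permutation test, two-sided, all adjusted p = 1.0). edgeR on the numbers of nuclei also called 0 classes in either design. Fibroblasts were the largest class, with 21.6, 17.7 and 27.4% of nuclei under vehicle and 21.97, 21.9 and 25.7% under NVP-BHG712. General capillary cells took 15.8, 13.2 and 10.8% and 16.4, 10.4 and 12.0%. Club cells, the secretory cells of the airway, took 2.35, 7.13 and 6.08% and 2.66, 7.00 and 5.95%. The replicate number took 99.4% of the sum of squares in club cells. It took less than treatment in 2 classes, arterial endothelium (10.1% against 17.4%) and smooth muscle (27.1% against 48.4%).

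In the main clustering the shares of 3 classes lay one way in all 3 pairs, by small amounts. Alveolar type II cells took 9.35, 7.41 and 11.5% under vehicle and 8.47, 6.90 and 11.1% under NVP-BHG712, a mean paired difference of -0.61 percentage points, which was -2.36 with finer clusters (Leiden resolution 2) and -1.88 with doublets kept. Aerocytes took 7.66, 4.49 and 5.04% and 7.75, 5.65 and 5.08%. Smooth muscle took 0.410, 0.329 and 0.276% and 0.437, 0.676 and 0.404% (exact permutation p = 0.2, the lowest of the 17). The direction in smooth muscle reversed under other processing, with mean paired differences of -0.19 percentage points without batch correction between libraries, -0.060 with doublets kept and -0.091 with a stricter filter on nuclei. The number of classes that lay one way in all 3 pairs was 1 to 4 over the alternatives. Alveolar macrophages took 8.26, 5.15 and 7.18% and 7.78, 6.13 and 8.15%, and interstitial macrophages or monocytes 1.56, 3.05 and 1.52% and 1.91, 5.70 and 1.50%. Nuclei that could not be named made up 4.05, 16.3 and 3.66% and 2.76, 4.35 and 4.27%, so that vehicle replicate 2 stood apart and its other shares are of fewer named nuclei. Among the unnamed nuclei, a cluster of 237, with 118 from vehicle replicate 2, had all 10 alveolar type II markers raised. Another of 211 had 5 of the 9 smooth muscle markers raised, beside 83 nuclei named smooth muscle. The part of these clusters in the shares above was not tested.

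**Figure D4:**
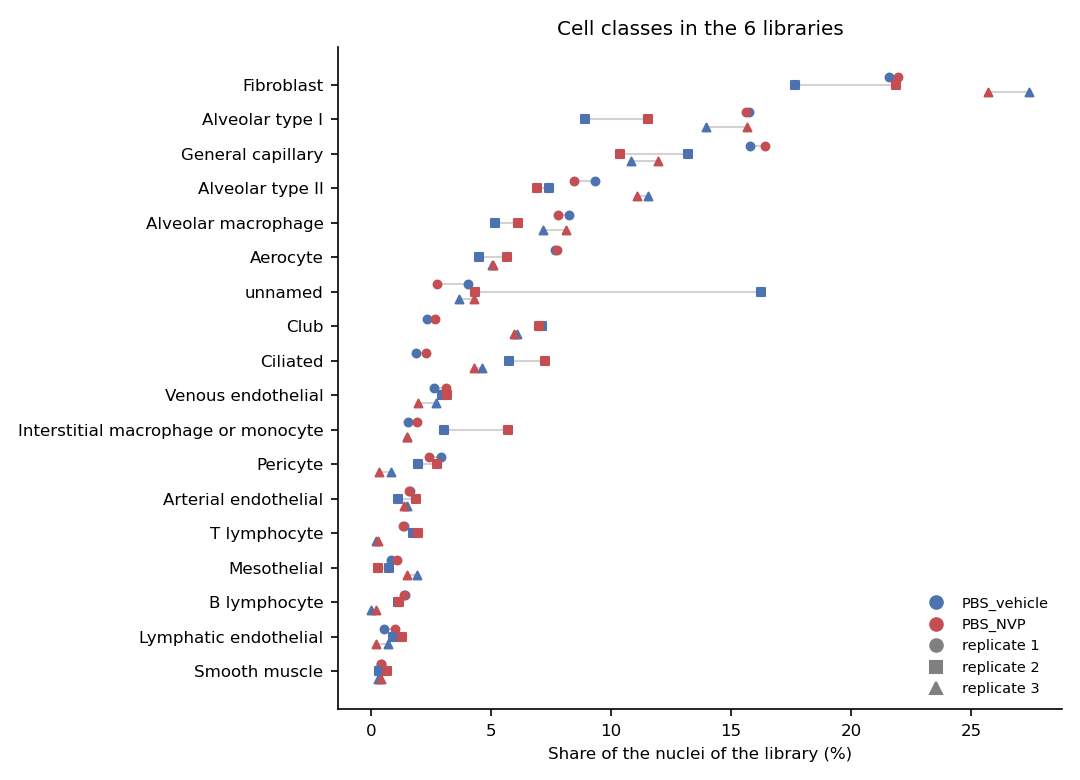
Share of the nuclei of each library (percent, horizontal axis) in each of 17 named cell classes, blue for vehicle and red for NVP-BHG712, with a symbol for each replicate number. In 0 of the 17 classes do the 3 red points lie wholly to one side of the 3 blue points.

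Within cell classes, nearly all calls came with pairing, and they depended on how nuclei were clustered. In the 11 classes with at least 20 nuclei in every library, 58757 tests across genes and classes gave 0 calls (0.0%) without pairing by edgeR, with 619 at an unadjusted p under 0.05. DESeq2 gave 0 calls as well, with 274. Without pairing, edgeR called 1 gene at resolution 2 and 2 with doublets kept. With pairing, edgeR called 57 (0.097%), 30 higher and 27 lower under NVP-BHG712, of which 49 also passed over all 11 classes together. Of the 57, 38 differed in the same direction in all 3 pairs, against 25.7% of all tests in the classes, and 16 had no overlap between the groups, against 5.65%. Since the call itself uses these differences, no support is drawn from either count. Leaving out each pair in turn, 2 of the 57 stayed called each time, among them Kcnip4 in club cells. The paired fits called 83 at resolution 2 (9 higher and 74 lower, 34 of them among the 57), 47 without batch correction (17 and 30, 26 among the 57) and 58 with doublets kept (45 and 13, 12 among the 57), so the balance of directions is not stable. Of the 57 genes, 53 had their highest level in a class other than the one in which they were called, and of all genes tested in those classes 90.156% did. The highest class exceeded their own by a median of 48.1-fold, against class medians of 1.57 to 2.32-fold over all genes tested. Aerocytes, arterial endothelium and interstitial macrophages or monocytes gave 0 paired calls, with 125, 53 and 87 genes at an unadjusted p under 0.05.

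Alveolar macrophages held 24 of the calls (0.43% of 5578 genes), 22 higher and 2 lower. Of the 24 genes 17 had their highest level in fibroblasts, against 3.16% of all genes tested in macrophages. Nox4, an NADPH oxidase, was at 23.7, 35.0 and 15.7 CPM in macrophages under vehicle and 165, 72.4 and 32.3 CPM under NVP-BHG712 (paired log2 difference 2.32, edgeR adjusted p = 8.62e-08), while its fibroblast level was 4052 CPM. C7, a complement component, was at 9.12, 26.9 and 11.8 CPM and 61.3, 106 and 16.1 CPM. Slit2, a guidance ligand, was at 21.9, 43.1 and 35.4 CPM and 117, 204 and 29.6 CPM, with number 3 going the other way. The 9 fibroblast markers that were not themselves called summed to 321, 357 and 309 CPM in macrophages under vehicle and 322, 520 and 492 CPM under NVP-BHG712, higher in all 3 pairs (exact permutation p = 0.2). In number 1 these markers differed little while Nox4 rose most, and in number 3 they rose while Slit2 fell. The part of these markers in the calls was not tested. With doublets kept, macrophages gave 0 paired calls, and at resolution 2 they gave 3, 1 higher and 2 lower.

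Of the macrophage calls that were not highest in fibroblasts, 3 had no overlap between the groups, as did 5.65% of all tests in the classes. Spp1, which encodes osteopontin, a secreted protein made by activated macrophages, was at 13.2, 16.2 and 7.87 CPM under vehicle and 33.1, 40.4 and 51.1 CPM under NVP-BHG712 (paired log2 difference 1.50, SE 0.36, edgeR adjusted p = 0.0171). Its highest class was the pericyte, at 254 CPM. Spp1 was called in no leave-one-out fit and in no other way of clustering. Macrophages of vehicle replicate 3 held 268703 UMIs in all, so the Spp1 value there rests on few UMIs. Ppp1r14c, an inhibitor subunit of protein phosphatase 1, was at 37.4, 40.4 and 27.5 CPM and 9.40, 17.0 and 16.1 CPM (-1.61, edgeR adjusted p = 0.0122), and its highest level lay in alveolar type II cells at 2811 CPM. Neither Spp1 nor Ppp1r14c passed over all 11 classes together, with edgeR adjusted p of 0.0656 and 0.0505. Pde7b, a cyclic AMP phosphodiesterase highest in lymphatic endothelium, was at 21.4, 29.6 and 19.7 CPM and 50.8, 74.5 and 32.3 CPM (1.203, edgeR adjusted p = 0.00862) and passed over all classes (0.0397).

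In alveolar epithelium most calls were lower under NVP-BHG712 and had their highest level in endothelium. Alveolar type I cells held 13 calls (0.152% of 8544 genes), 1 higher and 12 lower, and 10 of the 13 were highest in an endothelial class, against 16.6% of all genes tested in type I nuclei. Pecam1, which encodes the endothelial adhesion molecule CD31, was at 41.9, 11.5 and 4.96 CPM in type I nuclei under vehicle and 11.3, 5.84 and 2.04 CPM under NVP-BHG712 (paired log2 difference -1.66, edgeR adjusted p = 0.000105). Vehicle replicate 1 was the highest of the 6 by far. The 10 general capillary markers summed to 375, 148 and 52.9 CPM in type I nuclei and 175, 114 and 100.1 CPM, with no common direction over the pairs. Their part in these calls was not tested. H2-K1, a classical MHC class I gene, was the call that was higher, at 39.0, 35.0 and 53.8 CPM and 50.6, 46.8 and 109 CPM (0.59, edgeR adjusted p = 0.0356). With doublets kept, type I cells gave 0 paired calls.

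Alveolar type II cells held 3 calls (0.0546% of 5498 genes), all lower, all without overlap and all highest in endothelium. Of all genes tested in type II nuclei 15.8% were highest in an endothelial class, and of all tests in the classes 5.65% had no overlap. The call itself uses the difference, so no support is drawn from the lack of overlap. Hmcn1, which encodes the matrix protein hemicentin 1 and is one of the general capillary markers, was at 64.4, 50.4 and 113 CPM under vehicle and 16.9, 12.3 and 33.5 CPM under NVP-BHG712 (paired log2 difference -1.89, edgeR adjusted p = 0.000417). Its single pairs differed by -1.80, -1.87 and -1.69, and it was the gene of lowest adjusted p in this class without pairing (0.526). Arhgef3, a guanine nucleotide exchange factor called in both alveolar classes, was at 135, 37.2 and 48.3 CPM and 20.5, 27.0 and 22.4 CPM in type II nuclei. The class gave 0 paired calls with doublets kept and 50, all lower, at resolution 2. Sema6a, a semaphorin, had a paired log2 difference of -2.21. The other 9 general capillary markers summed to 322, 338 and 204 CPM in type II nuclei and 221, 231 and 134 CPM, lower in all 3 pairs (exact permutation p = 0.3). Their part in these calls was not tested.

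**Figure D5:**
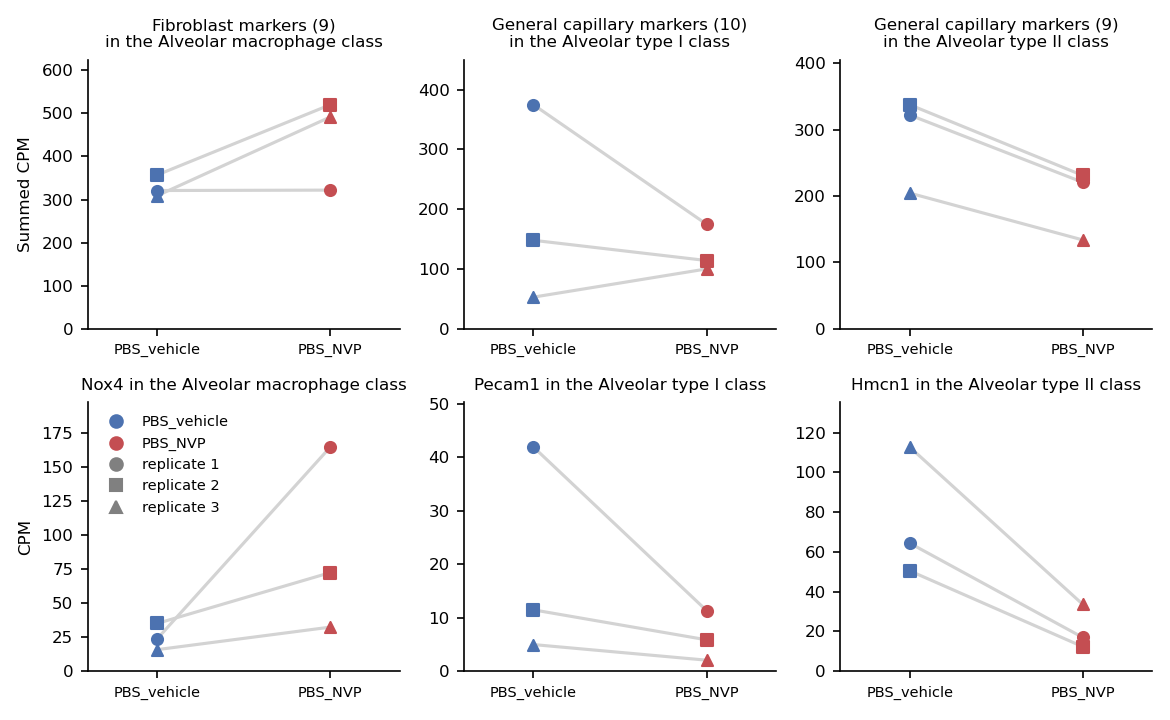
Genes called within a class in the paired fit, and the summed level of marker genes of another class in the same nuclei (CPM, linear axes from 0), by library, with a symbol for each replicate number and a line joining the same number. Fibroblast markers within macrophages (309 to 357 CPM under vehicle, 322 to 520 under NVP-BHG712) and capillary markers within type II cells (204 to 338 and 134 to 231) lie in the direction of the genes called beside them. Capillary markers within type I cells had no common direction over the pairs, while Pecam1 beside them was lower in each pair.

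Club cells held 12 calls (0.189% of 6358 genes), 4 higher and 8 lower. They held 51 with doublets kept, 39 higher and 12 lower, and 2 without batch correction, 1 in each direction. Kcnip4, a subunit of potassium channels, was at 1475, 1815 and 1349 CPM under vehicle and 2261, 2166 and 2693 CPM under NVP-BHG712, without overlap (paired log2 difference 0.60, SE 0.10, edgeR adjusted p = 9.55e-07). It is highest in alveolar macrophages, at 17852 CPM, and the 11 macrophage markers summed to 188, 253 and 247 CPM in club nuclei and 217, 179 and 254 CPM, with overlap. Kcnip4 stayed called in each leave-one-out fit and in each of the 3 other ways of clustering. Gria3, a glutamate receptor subunit highest in fibroblasts, was at 10.7, 3.95 and 4.50 CPM and 40.3, 21.6 and 34.5 CPM (2.16, edgeR adjusted p = 0.0218). Club nuclei of vehicle replicates 2 and 3 held 549858 and 230575 UMIs in all, so the Gria3 values there rest on few UMIs. Gria3 was called in 2 of the 3 other ways of clustering and in no leave-one-out fit. Tll1, a procollagen-processing protease, was at 160, 107 and 85.5 CPM and 173, 352 and 152 CPM (0.84, edgeR adjusted p = 0.00378).

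The 4 calls whose highest class is the club cell itself were lower under NVP-BHG712. They were Tacr1, Fut9, Bpifb1 and Muc5b. Muc5b, the gel-forming mucin of the airway, was at 157, 336 and 229 CPM under vehicle and 158, 151 and 104 CPM under NVP-BHG712 (paired log2 difference -0.66, edgeR adjusted p = 0.0426). Bpifb1, a secreted antimicrobial protein of the airway, was at 227, 186 and 108 CPM and 162, 99.3 and 17.3 CPM (-0.84, edgeR adjusted p = 0.00839), and Fut9, a fucosyltransferase, was at 119, 103 and 175 CPM and 68.2, 45.3 and 13.8 CPM without overlap (-1.37, edgeR adjusted p = 2.3e-05). Tacr1, the receptor of substance P, was at 148, 223 and 18.0 CPM and 56.6, 53.9 and 20.7 CPM (-1.54). Bpifb1, Muc5b and Fut9 lead 1 small cluster of 83 nuclei within the class, which held 11, 20 and 11 nuclei under vehicle and 18, 18 and 5 nuclei under NVP-BHG712. In these genes a lower level per nucleus and fewer nuclei of that cluster cannot be told apart.

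Single calls stood in the other classes. Ciliated cells had 1 (0.0185% of 5408 genes): Scgb1a1, the main secretoglobin of club cells, at 741, 383 and 251 CPM under vehicle and 1381, 681 and 380 CPM under NVP-BHG712 (paired log2 difference 0.82, edgeR adjusted p = 0.0163). The other 7 club markers in ciliated nuclei summed to 958, 1099 and 1570 CPM and 1012, 948 and 1236 CPM, with no common direction. Fibroblasts had 1 (0.0102% of 9767 genes): Tmeff2, a membrane protein highest in aerocytes at 1787 CPM, at 18.7, 36.1 and 24.5 CPM and 29.3, 75.7 and 56.5 CPM (0.92, edgeR adjusted p = 0.00172). General capillary cells had 2 (0.0344% of 5810 genes). Neat1, a nuclear long noncoding RNA, was higher in each pair, at 397, 451 and 532 CPM and 528, 583 and 950 CPM (0.50, edgeR adjusted p = 0.00149), and Zfp521, a transcriptional regulator, was lower in each pair (-0.53, edgeR adjusted p = 0.045).

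Venous endothelium had 1 call (0.0315% of 3178 genes). The 12 fibroblast markers in venous nuclei summed to 2083, 1034 and 821 CPM and 854, 801 and 839.7 CPM, with vehicle replicate 1 above the rest. The gene called had its highest level in another class, not in fibroblasts. The part of these markers in the call was not tested. The call stayed when each pair was left out in turn. With doublets kept or without batch correction, venous endothelium gave 0 paired calls, and at resolution 2 it gave 1.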

How the data were processed

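Per the labels and the study's methods, nuclei of snap-frozen perfused lungs were dounced, sorted by DAPI and sequenced with the 10x 3' chemistry. The authors deposited raw UMI counts per gene and barcode from Cell Ranger (7.0 in the submitters' notes, 7.2.0 in the file headers; genome build mm10), before the ambient RNA and doublet steps of their own analysis. From 20231 barcodes in the 6 PBS libraries, 2 with too few genes, 9 with too many and 37 with over 5% mitochondrial UMIs were left out. UMIs were summed per library and tested with edgeR 4.0.16 in R 4.3.3 (filterByExpr, TMM, robust quasi-likelihood, Benjamini-Hochberg over all genes tested, called at adjusted p under 0.05), without and with replicate number as a block. CPM are scaled by TMM except for levels across classes and marker sums, which are per class total. The standard error is the absolute log2 difference over the square root of F. DESeq2 1.42.0 was an alternative. A list counts a gene as lying one way when its log2 CPM differed in that direction in each pair.

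Deviations from the group means of libraries of the same number correlated at 0.76, 0.42 and 0.53 across 13928 genes, and those of other numbers at -0.55 to -0.014, so the numbers were taken to pair the mice. The pairing comes from the labels' replicate numbers and this check.

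Nuclei were clustered with scanpy 1.11.5 (2000 variable genes, 30 components, Harmony over libraries, 20 neighbours, Leiden resolution 1) after the highest doublet scores (0.8% per 1000 nuclei) were left out, which removed 833 nuclei (4.127%). Clusters were named from at least 3 markers. No correction for free RNA was run. Exact permutation tests over the 6 libraries were two-sided. Gene positions are those of GENCODE M21 (GRCm38). The scripts were tested on simulated data.

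The comparison, gene lists and markers were chosen with earlier results of these data known. Named whole-lung genes were those called (none), the 10 of lowest unadjusted p in each design averaging at least 10 CPM, without predicted genes, Ephb4, Efnb2, and from each list the 2 members of largest difference at that level. List members at unadjusted p under 0.05 or without overlap, further Eph members, Eln, Sftpc and the genes described in cell classes were chosen after their values were seen. Without pairing, p-values measure the spread between mice of 1 line and age, which here includes that by replicate number and run. With pairing, they measure the spread of the differences within pairs, with 2 residual degrees of freedom. edgeR adds to this a spread shared over genes, whose weight is given as prior degrees of freedom. Their median with pairing was 7.749 in the whole lung, 82.43 in macrophages and infinite in club cells. Paired p-values in those 2 classes thus rest mostly on the shared spread. They can be low where pairs disagree, as for Nox4 called higher in club cells (pairs 2.95, -0.23 and -0.34). The gene called in venous endothelium is not reported here.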

Additional observations from a re-analysis of the deposited data

How the results depend on the processing

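In the whole lung, 0 genes were called under every alternative without a replicate block, including DESeq2, another normalization, no filter, a run block, all 12 libraries and each library left out. The paired count was 0 as well, except that it was 31 with no filter on low counts, 1 (Gm20275) with the same number of nuclei drawn from each library, and 1 to 9 with 1 replicate pair left out, where 1 residual degree of freedom remains. Among the 31 were Tmem163, Ttn, Ptprt, Fstl4, Ryr2, Nrbp2, Dusp1, mt-Co1, mt-Co2 and mt-Co3. In the cell classes the replicate block moved the count from 0 to 57. Without the block it was 1 at resolution 2, 2 with doublets kept and 0 to 9 with 1 library left out, 9 without PBS_NVP replicate 3. With the block, leaving out a pair gave 43 to 151 calls, of which 13 to 40 were among the 57. The number of class shares without overlap was 0 to 3 with 1 library left out.

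With the run as a block, log2 differences reversed to -0.068 in Epha2, -0.085 in Insig1, -0.0029 in Bax, 0.011 in Efnb2, 0.0089 in Vegfc, 0.18 in Hba-a1, 0.14 in Hba-a2, -0.24 in Mfap4, -0.15 in Atf4, -0.13 in Dusp1, -0.043 in Eif2s3y, 0.00036 in Pdgfrb and -0.019 in Ltbp3. Reversals also stood at 0.58 in Hba-a1 under DESeq2 with the block, -0.091 in H2-Aa and -0.053 in Cd74 with equal numbers of nuclei, and 0.090 in Hba-a2, -0.044 in H2-Aa, 0.014 in Spry4 and -0.025 in Cd74 with equal numbers and the block. Leaving out libraries or pairs reversed 31 of 66 named genes at least once, with ranges of -0.15 to 0.94 in Ptprt, -0.32 to 0.43 in Efnb1, -0.57 to 0.19 in Vegfd, -0.051 to 0.46 in Epha2, -0.071 to 0.61 in Insig1, -0.40 to 0.15 in Cxcl15, -0.49 to 0.16 in Ephb4, -0.021 to 0.60 in Bax, -0.069 to 0.61 in Dbp, -0.037 to 0.47 in Sgk1, -0.29 to 0.046 in Efnb2, -0.55 to 0.0011 in Vegfc, -0.63 to 0.26 in Smad6, -0.12 to 0.68 in Xbp1, -3.95 to 5.50 in Hba-a1, -3.48 to 3.63 in Hba-a2, -0.57 to 1.15 in Mfap4, -0.095 to 0.18 in Cxcl16, -0.37 to 0.37 in Ccl6, -0.022 to 0.23 in Pxdn, -0.18 to 0.42 in Atf4, -0.25 to 0.87 in Col8a1, -0.15 to 0.77 in Dusp1, -0.14 to 0.40 in H2-Aa, -0.040 to 0.38 in Efna5, -0.055 to 0.088 in Eif2s3y, -0.068 to 0.65 in Egr1, -0.41 to 0.032 in Spry4, -0.10 to 0.36 in Cd74, -0.90 to 0.38 in Pdgfrb and -0.11 to 0.50 in Ltbp3. The other 35, Il33 among them, kept their direction. The causes were not tested. Alternatives that combine the block with another choice, except leaving out a pair in the whole lung, and the nucleus filter in classes were chosen after seeing the data. With 3 mice per group, the spread between them and 1465 nuclei in the smallest library, small differences and differences in rare classes could be missed.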
